A study of Mus musculus with 8 samples.

Results

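The 35 genes described here drive the cell through its division cycle or copy its DNA, and they were listed by name. All probe sets whose single gene symbol in the array annotation was on that list were taken. They came to 77 of the 45037 probe sets tested, and they stood for 34 of 18193 named genes. Ccnb1, a mitotic cyclin, had no probe set under the rule, and its level was not analysed here. RNA was measured on arrays of whole tissue from the intestine's 5 cm next to the pylorus, taken from male mice aged 6 months. The 4 knockout mice (Pdx1flox/flox;VilCre) carried Pdx1 alleles with loxP sites around exon 2 and a Cre transgene under a 12.4 kb piece of the villin 1 promoter, which is active in the gut epithelium. The 4 control mice (Pdx1flox/flox) carried the same floxed alleles, and the labels name no Cre for them. The 8 mice were kept on a standard diet containing 4.5% fat, and each label calls its mouse a brother from the same litter. Samples are called control 1 to 4 and knockout 1 to 4, after the replicate numbers in the labels. Those numbers do not tie a control to a knockout.

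In the small intestine cells divide in the crypts, where stem cells and their transit-amplifying daughters cycle quickly, while the cells of the villus have left the cycle. Cyclins switch on their partner kinases in turn. Before replication the MCM helicase is loaded on DNA with the help of Cdc6, and in S phase Cdc45 joins it and Pcna holds the polymerases on the template. Transcripts for replication are switched on late in G1, largely by E2F factors, and transcripts for mitosis peak in G2, through a promoter element called the CHR that the DREAM and MMB-FOXM1 complexes read. Lymphocytes that divide in the gut wall carry the same transcripts. In whole tissue, fewer dividing cells and less RNA per dividing cell cannot be told apart.

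The promoters of 6 members are shown because they carry the elements that these genes are known to share and separate the mitotic from the replication genes. They are from RefSeq, build GRCm38.p6, 5′ to 3′ on the gene's strand, and each ends at the base before the annotated start of transcription. Capitals mark the CHR (TTTGAA), the CCAAT box (CCAAT) and E2F sites (TTTCCCGC or TTTCGCGC or TTTGCCGC or TTTGGCGC), each searched on both strands. Neighbouring E2F matches on opposite strands can overlap, as in Mcm5 and Mcm6, where they run together.
Cdk1 (chr10:69352913-69353052, minus strand): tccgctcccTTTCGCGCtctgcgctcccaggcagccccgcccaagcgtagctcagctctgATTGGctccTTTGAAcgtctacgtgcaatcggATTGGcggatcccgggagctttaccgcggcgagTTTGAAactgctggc
Cdc20 (chr4:118437344-118437423, minus strand): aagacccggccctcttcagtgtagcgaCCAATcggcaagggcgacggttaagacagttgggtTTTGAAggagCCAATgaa
Kif11 (chr19:37376302-37376381, plus strand): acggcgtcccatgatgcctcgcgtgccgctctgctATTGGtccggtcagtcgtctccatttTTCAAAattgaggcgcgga
Mki67 (chr7:135716380-135716579, minus strand): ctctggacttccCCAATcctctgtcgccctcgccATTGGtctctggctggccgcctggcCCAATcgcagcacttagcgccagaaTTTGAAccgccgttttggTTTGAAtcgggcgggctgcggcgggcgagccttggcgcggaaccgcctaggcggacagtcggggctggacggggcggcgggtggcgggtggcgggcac
Mcm5 (chr8:75109349-75109508, plus strand): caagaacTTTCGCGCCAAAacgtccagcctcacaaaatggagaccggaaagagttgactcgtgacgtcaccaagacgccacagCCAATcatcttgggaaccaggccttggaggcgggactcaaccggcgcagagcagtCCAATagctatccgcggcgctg
Mcm6 (chr1:128359706-128359825, minus strand): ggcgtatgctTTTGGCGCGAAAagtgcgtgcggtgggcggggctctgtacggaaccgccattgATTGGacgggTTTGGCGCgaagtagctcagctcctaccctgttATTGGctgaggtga

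Cdk1 holds all 3 elements, and Cdc20, Kif11 and Mki67 hold the CHR beside CCAAT boxes. Mcm5 and Mcm6 hold E2F sites and CCAAT boxes. Promoters from 250 bases before to 50 bases after the start were found for 28 of the 35 genes, 29 windows in all. The CHR letters lay in 11 of 14 windows (78.6%) of the G2, mitosis and chromosome genes and in 2 of 15 (13.3%) of the G1/S, replication and nucleotide genes, against 17.9% of 32817 promoters in the table. E2F letters lay in 1 of 14 (7.14%) and 6 of 15 (40%), against 2.26% of all. CCAAT was found in 13 of 14 (92.9%) and 11 of 15 (73.3%), against 37.4%. A match of letters is a description and does not show that a factor binds there.

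Values are the authors' log2 expression values, so a difference of 1 is a doubling. Array medians lay between 5.23 and 5.27. Pdx1 was checked against the labels: its brighter probe set read 8.33, 8.61, 8.16 and 8.98 in controls 1 to 4 and 6.04, 5.91, 6.18 and 5.58 in knockouts 1 to 4. Whether it reads the removed exon is not given in the labels. Apoa1, an apolipoprotein of enterocytes, read 14.50 ± 0.071 in controls and 14.68 ± 0.069 in knockouts (SD, n = 4 each), among the brightest values on the arrays. 2 arrays, control 2 and knockout 3, deviated from their group means in a similar way. Deviations within a group add up to 0, so the correlations of different pairs are not independent. Over 24164 probe sets with a mean of at least 5, the deviations of control 2 and knockout 3 from their group means had a Pearson's r of 0.69, while the other 15 pairs of a control with a knockout lay between -0.55 and 0.45. The counts and medians of the member genes and of the lists that follow are also given without this pair where they moved.

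Transcripts of the cell cycle showed no difference past the test when the gut epithelium lacked Pdx1. None of the 77 probe sets passed the test between the genotypes (0 called at an adjusted p under 0.05 in limma; lowest adjusted p = 0.561), where 19 of all 45037, or 0.0422%, passed. At an unadjusted p under 0.05 there were 2 of 77, both higher in the knockout, against a background of 7.13%. Control and knockout values did not overlap in the same count, 2 of 77, against 4.43% of all probe sets. Both had the knockout higher, which held for 2.1% of all probe sets. An ordinary linear model without pooled variance called 0 of the 77, but it called only 2 of all 45037. Without control 2 and knockout 3, a fit chosen after the data were seen, 0 of the 77 and 17 of all 45037 passed.

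The intervals show the size of difference that the values of each probe set leave room for. They are taken for each probe set alone and do not give the smallest difference that the adjusted test would call. For 68 of 77 probe sets the 95% interval of the difference lay within 0.5 log2 units of 0, about 1.41-fold, which held for 93.1% of all probe sets. All 77 lay within 1 unit, a doubling. Taking each gene by its brightest probe set over the 8 arrays, 31 of 34 genes lay within 0.5. The exceptions were Kif11, up to 0.56, Kif20a, up to 0.506, and Cdc45, up to 0.505. The differences of the 34 genes ran from -0.11 for Cdc6 to 0.28 for Kif11, with a median of 0.051, and 28 of 34 were above 0. Over all genes the median was 0.0046 and 51.6% were above 0. Over the 12849 genes with a mean of at least 5, as 33 of the 34 had, the median was 0.015 and 56.0% were above 0. By probe set the lean was smaller: 64.9% of the 77 were above 0, with a median of 0.035. Among the 60 of these with a mean of at least 5 it was 76.7%, with a median of 0.051. The lean of the 34 genes moved with single arrays and with the scaling. Without knockout 3, 22 of 34 were below 0 and the median was -0.025; without control 3, 15 of 34 were below 0. With quantile normalization 10 of 34 were below 0. Without both control 2 and knockout 3, 8 of 34 were below 0 and the median was 0.061.

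**Figure D1:**
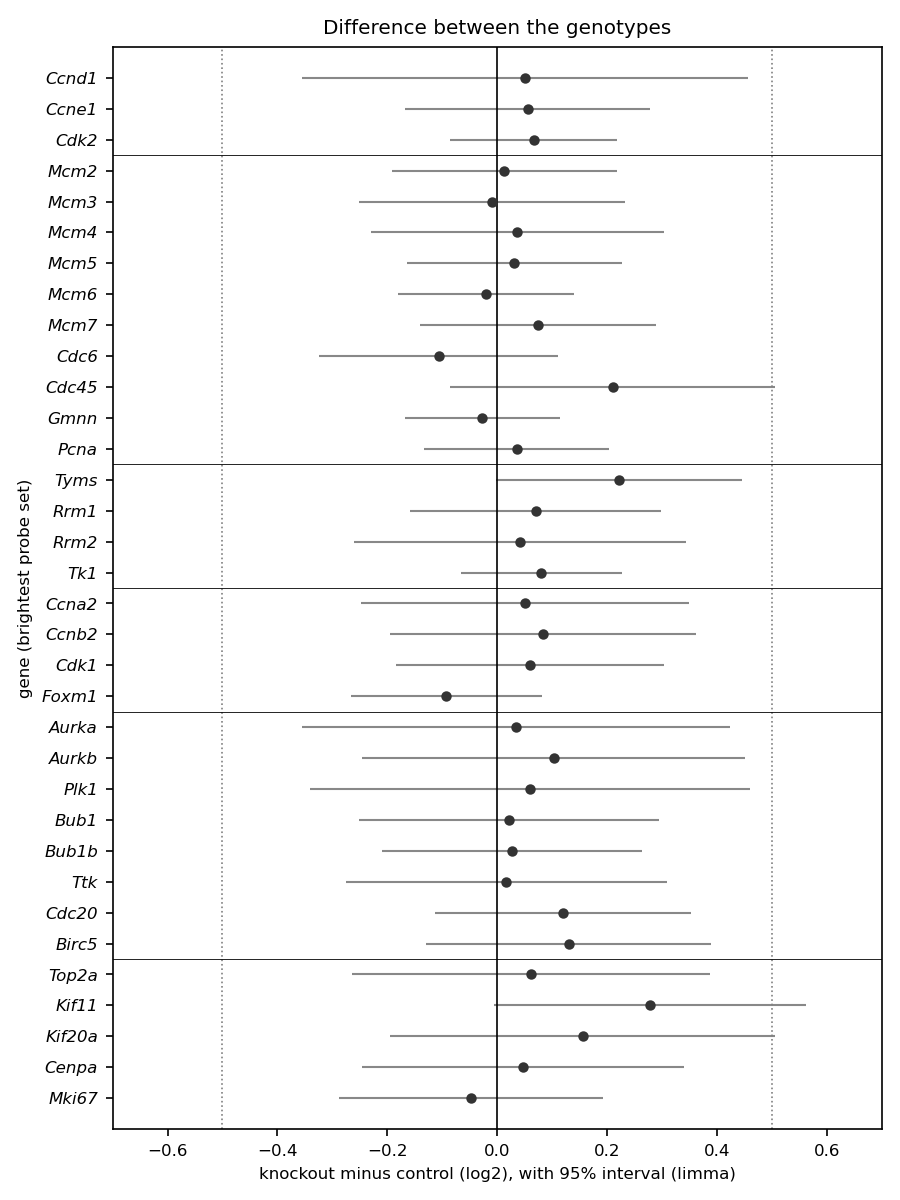
Difference between knockout and control for each of the 34 genes by its brightest probe set, in log2 units with the 95% interval from limma, in blocks by role. Every interval includes 0, and 31 of 34 lie inside the dotted lines at 0.5 on either side.

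The genes that carry the cell from G1 into S are taken first, in the order of the cycle. Ccnd1 encodes cyclin D1, which links growth signals such as Wnt to the cycle. It read 9.48, 10.01, 9.51 and 9.48 in controls 1 to 4 and 9.30, 9.79, 10.15 and 9.45 in knockouts 1 to 4. Control 2 and knockout 3 were the highest of their groups and the groups overlapped, with a difference of 0.05 (SE 0.18, 95% interval -0.36 to 0.46, adjusted p = 0.972 in limma). Ccne1 encodes cyclin E1, which starts S phase with Cdk2, and it read 6.98, 7.25, 7.06 and 6.94 in controls 1 to 4 and 6.95, 7.15, 7.33 and 7.01 in knockouts 1 to 4. It showed the same pair of high arrays, with a difference of 0.06 (SE 0.10, 95% interval -0.17 to 0.28, adjusted p = 0.937 in limma). Cdk2 itself varied less among knockouts, from 8.08 to 8.14, and read 7.91, 8.14, 8.08 and 8.04 in the controls, with a difference of 0.07 (SE 0.068, 95% interval -0.09 to 0.22, adjusted p = 0.873 in limma).

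The MCM genes encode the subunits of the ring-shaped helicase that opens DNA at the fork. Mcm5 read 8.72, 8.91, 8.67 and 8.88 in controls 1 to 4 and 8.72, 8.89, 8.98 and 8.71 in knockouts 1 to 4. Its groups overlapped, with a difference of 0.03 (SE 0.088, 95% interval -0.16 to 0.23, adjusted p = 0.962 in limma). Mcm6 read 10.03, 10.13, 10.19 and 10.13 in controls 1 to 4 and 10.06, 10.22, 10.13 and 9.99 in knockouts 1 to 4, with neither control 2 nor knockout 3 on top, with a difference of -0.02 (SE 0.072, 95% interval -0.18 to 0.14, adjusted p = 0.971 in limma). Mcm2, Mcm3, Mcm4 and Mcm7 had differences of 0.01, -0.01, 0.04 and 0.07, and none of these passed. So the estimated differences of the 6 subunits were under 0.1 in size on their brightest probe sets. The 95% intervals of these reached -0.25 for Mcm3 and 0.30 for Mcm4. On the other probe sets of the 6 genes the differences ran from -0.05 for Mcm7 to 0.30 for Mcm6.

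Around the helicase the picture was the same. Pcna, the sliding clamp, read 11.62, 11.75, 11.60 and 11.76 in controls 1 to 4 and 11.65, 11.78, 11.61 and 11.83 in knockouts 1 to 4, with a difference of 0.04 (SE 0.076, 95% interval -0.13 to 0.20, adjusted p = 0.947 in limma). Gmnn encodes geminin, which blocks a second round of licensing, and its values had the smallest range of the 34 genes, with 9.54, 9.67, 9.59 and 9.63 in controls 1 to 4 and 9.59, 9.57, 9.64 and 9.52 in knockouts 1 to 4. Neither gene separated the genotypes, and the geminin difference was -0.03 (95% interval -0.17 to 0.11, adjusted p = 0.952 in limma). Cdc6, the loading factor, read 6.64, 6.71, 6.33 and 6.76 in controls 1 to 4 and 6.40, 6.47, 6.60 and 6.53 in knockouts 1 to 4, with a difference of -0.11 (SE 0.098, 95% interval -0.32 to 0.11, adjusted p = 0.858 in limma). Cdc45 read 6.13, 6.43, 5.84 and 6.45 in controls 1 to 4 and 6.30, 6.40, 6.60 and 6.38 in knockouts 1 to 4; control 3 was the lowest of all, with a difference of 0.21 (SE 0.13, 95% interval -0.09 to 0.51, adjusted p = 0.779 in limma). Of the 10 licensing and fork genes, 6 had differences above 0 and 4 below, with a median of 0.022 and none past the test. That split turned with 1 array: 3 were above 0 without knockout 3 (median -0.031), 4 without control 3 (median -0.022) and 5 without control 2 and knockout 3 (median -0.0027). With quantile normalization 3 were above 0 and 7 below.

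Nucleotide supply was measured through ribonucleotide reductase, thymidine kinase and thymidylate synthase. Rrm2, the regulated subunit of the reductase, read 8.51, 8.74, 8.17 and 8.52 in controls 1 to 4 and 8.28, 8.49, 8.82 and 8.51 in knockouts 1 to 4. Control 3 and knockout 1 were the lowest and knockout 3 the highest, with a difference of 0.04 (SE 0.14, 95% interval -0.26 to 0.34, adjusted p = 0.968 in limma). Rrm1, its large subunit, had 0.07 and Tk1, thymidine kinase, had 0.08, neither past the test. Tyms, thymidylate synthase, could hardly be read: its 4 probe sets had means from 3.12 to 3.98, below every array median. The brightest of them read 3.87, 3.86, 4.11 and 3.64 in controls 1 to 4 and 4.07, 4.12, 4.22 and 3.96 in knockouts 1 to 4, with a difference of 0.22 (SE 0.10, 95% interval -0.0018 to 0.45, adjusted p = 0.703 in limma). At that level an unknown share of the value is background.

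In G2 and at the entry to mitosis, Cdk1 is the kinase that all mitotic cyclins need. It read 9.10, 9.48, 9.09 and 9.19 in controls 1 to 4 and 9.05, 9.35, 9.44 and 9.26 in knockouts 1 to 4. The groups overlapped almost fully, with a difference of 0.06 (SE 0.11, 95% interval -0.18 to 0.30, adjusted p = 0.938 in limma). Ccnb2, cyclin B2, read 8.94, 9.42, 9.01 and 9.16 in controls 1 to 4 and 9.08, 9.25, 9.48 and 9.04 in knockouts 1 to 4, with a difference of 0.08 (SE 0.13, 95% interval -0.19 to 0.36, adjusted p = 0.919 in limma). Ccna2, cyclin A2, which serves both S phase and G2, had 0.05 (95% interval -0.25 to 0.35). Foxm1, the transcription factor that completes the activation of mitotic genes, read 7.68, 7.49, 7.51 and 7.43 in controls 1 to 4 and 7.32, 7.43, 7.55 and 7.43 in knockouts 1 to 4. Here control 1 was the highest control, with a difference of -0.09 (SE 0.078, 95% interval -0.27 to 0.08, adjusted p = 0.840 in limma). The other probe sets of Foxm1 had 0.07, 0.01 and -0.05, the last with a mean of 3.03, so they disagreed in sign.

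**Figure D2:**
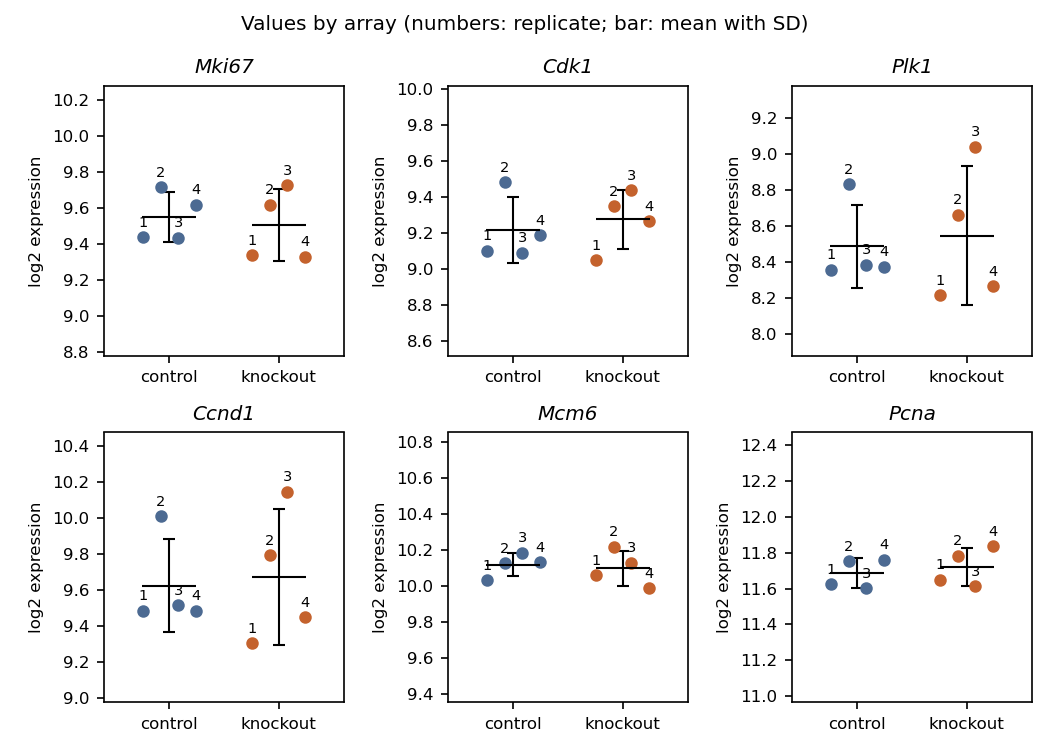
Log2 expression of 6 genes on each array, with numbers for the replicate and bars for the group mean with SD (n = 4 each); every panel spans the same number of log2 units. Control 2 and knockout 3 are the highest of their groups for Mki67, Cdk1, Plk1 and Ccnd1 but not for Mcm6 or Pcna, and control and knockout values overlap in each panel.

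The mitotic kinases and the spindle checkpoint had a wider spread from mouse to mouse than the replication genes. Plk1, polo-like kinase 1, read 8.36, 8.83, 8.39 and 8.37 in controls 1 to 4 and 8.21, 8.66, 9.04 and 8.26 in knockouts 1 to 4. Control 2 and knockout 3 were well above the others, and the highest and lowest values were both knockouts, with a difference of 0.06 (SE 0.18, 95% interval -0.34 to 0.46, adjusted p = 0.966 in limma). Aurka, the Aurora kinase of the spindle poles, read 7.82, 8.33, 7.82 and 7.81 in controls 1 to 4 and 7.70, 7.995, 8.47 and 7.75 in knockouts 1 to 4, with a difference of 0.03 (SE 0.18, 95% interval -0.35 to 0.42, adjusted p = 0.980 in limma). Aurkb, the Aurora kinase of the chromosomal passenger complex, read 7.66, 7.95, 7.26 and 7.68 in controls 1 to 4 and 7.47, 7.68, 8.10 and 7.72 in knockouts 1 to 4, with a difference of 0.10 (SE 0.16, 95% interval -0.25 to 0.45, adjusted p = 0.921 in limma). The same 2 arrays led there. Birc5 encodes survivin, a partner of Aurkb in that complex, and read 9.22, 9.59, 9.16 and 9.23 in controls 1 to 4 and 9.21, 9.44, 9.67 and 9.40 in knockouts 1 to 4, with a difference of 0.13 (SE 0.12, 95% interval -0.13 to 0.39, adjusted p = 0.853 in limma). Cdc20, which activates the anaphase-promoting complex, read 9.65, 9.90, 9.67 and 9.55 in controls 1 to 4 and 9.64, 9.82, 10.06 and 9.73 in knockouts 1 to 4, with a difference of 0.12 (SE 0.10, 95% interval -0.11 to 0.35, adjusted p = 0.848 in limma). In each of them the groups overlapped. The checkpoint kinases Bub1, Bub1b and Ttk had 0.02, 0.03 and 0.02. All 8 genes of the group had differences above 0, from 0.02 to 0.13, with a median of 0.047 and none past the test. With quantile normalization 7 of 8 were above 0, without knockout 3 there were 2 of 8, without control 3 there were 3 of 8, and without control 2 and knockout 3 there were 7 of 8.

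Genes for the chromosomes and the spindle motors gave the largest difference among the 34. Kif11, the motor that pushes the spindle poles apart, read 7.39, 7.55, 7.07 and 7.24 in controls 1 to 4 and 7.42, 7.44, 7.90 and 7.60 in knockouts 1 to 4. Knockout 3 stood highest and control 3 lowest, and the groups overlapped, with a difference of 0.28 (SE 0.13, 95% interval -0.0066 to 0.56, adjusted p = 0.706 in limma). Its other 2 probe sets had -0.06 and -0.02, so the probe sets of Kif11 disagreed in sign. Top2a, the topoisomerase that untangles sister chromatids, read 9.35, 9.84, 9.28 and 9.51 in controls 1 to 4 and 9.28, 9.63, 9.87 and 9.45 in knockouts 1 to 4, with a difference of 0.06 (SE 0.15, 95% interval -0.27 to 0.39, adjusted p = 0.953 in limma). Mki67, which encodes the proliferation marker Ki-67, read 9.44, 9.72, 9.44 and 9.62 in controls 1 to 4 and 9.34, 9.62, 9.73 and 9.33 in knockouts 1 to 4, with a difference of -0.05 (SE 0.11, 95% interval -0.29 to 0.19, adjusted p = 0.950 in limma). Its values overlapped throughout. Cenpa, the histone of the centromere, had 0.05, and Kif20a, a motor of cell division's last step, had 0.16 (95% interval -0.19 to 0.51).

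The 2 probe sets with an unadjusted p under 0.05 in limma were not the brightest of their genes. A probe set of Mcm6 read 7.88, 7.66, 7.81 and 7.79 in controls and 8.14, 8.06, 8.26 and 7.88 in knockouts, a difference of 0.30 (95% interval 0.10 to 0.50, unadjusted p = 0.00688, adjusted p = 0.561 in limma). Its groups did not overlap, though the lowest knockout and the highest control both round to 7.88. Its name ends in x_at, which the maker gives to probe sets whose probes can match other transcripts, and the brightest Mcm6 probe set had -0.02. The same ending is carried by 13 of the 77 probe sets, among them the brightest of 5 genes described above: Ccne1, Mcm5, Rrm2, Aurkb and Cdc20. The other separated one was a Cenpa probe set with means of 3.35 and 3.56, near the bottom of the scale (difference 0.22, adjusted p = 0.601). Of 24 genes with several probe sets, 17 had differences of both signs. In all, 17 of the 77 probe sets had a mean under 5.

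What the genes shared was their order across mice. Of the 34 genes, 26 had their highest control value in control 2 and 30 their highest knockout value in knockout 3, and 25 had both. Over all 18193 genes those shares were 25.4%, 30.2% and 14.9%, and over the 12849 genes with a mean of at least 5 they were 27.5%, 33.1% and 18.0%. The mean deviation of the 34 genes from their own means was -0.10, 0.17, -0.16 and -0.02 in controls 1 to 4 and -0.14, 0.07, 0.23 and -0.05 in knockouts 1 to 4. The arrays of both genotypes thus spanned nearly the same range. A mouse of one genotype differed from its brothers of the same genotype by more than the genotypes did from each other: the mean was -0.028 in controls and 0.028 in knockouts, against SDs of 0.15 and 0.16 between arrays.

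The shared order was clearest in the mitotic genes. In the 17 genes of G2, mitosis and the chromosomes, control 2 was the highest control in 16 and knockout 3 the highest knockout in 17. Foxm1 was the exception on its brightest probe set, while its next brightest had control 2 and knockout 3 on top. In the 17 genes of G1/S, replication and nucleotide supply the counts were 10 and 13. Mean deviations in control 2 and knockout 3 were 0.24 and 0.30 for the first set and 0.11 and 0.17 for the second. The median SD within a group was 0.22 for chromosome and spindle genes, 0.21 for mitotic kinases and checkpoint genes and 0.14 for licensing and fork genes, and 0.13 over all genes. Control 2 and knockout 3 were on top less often in the dim probe sets. Among the 17 with a mean under 5, control 2 was the highest control in 2 and knockout 3 the highest knockout in 5. Among the other 60 the counts were 46 and 53, and over all genes the shares were 25.4% and 30.2%.

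**Figure D3:**
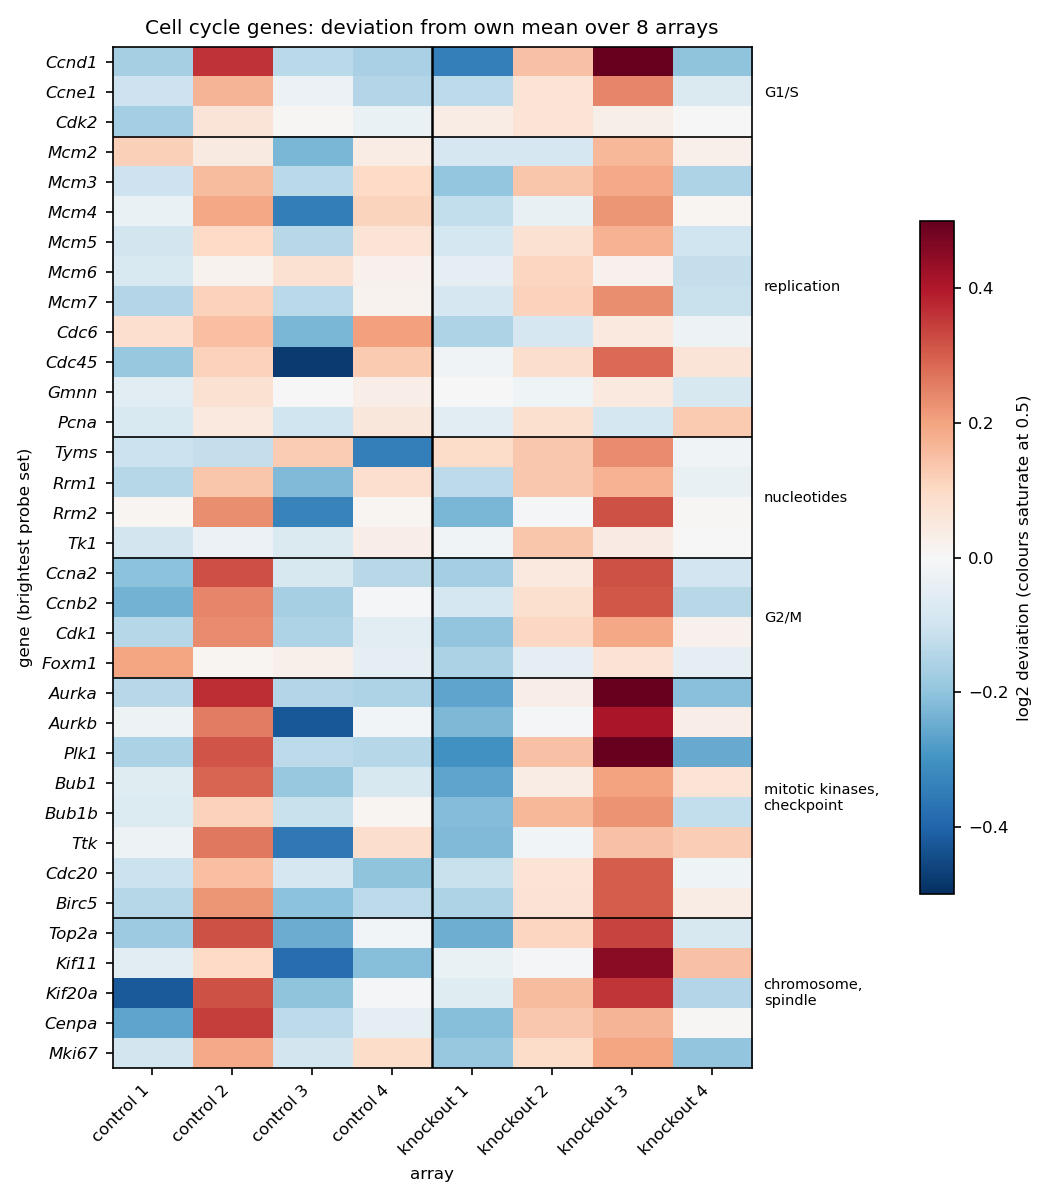
Deviation of each of the 34 genes from its own mean over the 8 arrays, in log2 units, with red above and blue below the mean and blocks by role. Control 2 and knockout 3 are red in nearly every row, and control 3 and knockout 1 are mostly blue.

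Lists of further cell cycle genes, 101 measured genes on 231 probe sets, held no called probe set either (0 of 231 against 0.0422%). At an unadjusted p under 0.05 there were 13 of 231 (5.63%), 6 higher and 7 lower, against 7.13% of all probe sets. Of the other mitosis genes, 31 of 38 measured had differences above 0 (median 0.09). Without knockout 3 there were 24 of 38 (median 0.028), without control 3 there were 23 of 38 (median 0.034), and without control 2 and knockout 3 there were 34 of 38 (median 0.08). Kif15, a spindle motor, had -0.22 and Smc4, a condensin subunit, had 0.20 (adjusted p = 0.564 and 0.702 in limma). Among the other replication factors, 23 of 35 were above 0 (median 0.02), with Gins3 of the GINS complex at -0.22 and Uhrf1, which helps copy DNA methylation, at -0.18 (adjusted p = 0.676 and 0.694). That count was 17 of 35 with quantile normalization, 16 without control 1 and also without knockout 2 (medians -0.019 and -0.0080), 18 without knockout 3 (median 0.0035) and 23 without control 2 and knockout 3. Of the 72 probe sets of these replication factors, 38 were above 0 (52.8%, median 0.0068). An unadjusted p under 0.05 in limma was found for 5 of the 72, all lower in the knockout, against 7.13% of all probe sets. The other G1/S regulators had 16 of 21 above 0 (median 0.10), with the pocket protein Rbl2 at 0.22 (adjusted p = 0.625 in limma). Without knockout 3 they had 13 of 21 (median 0.032), and without control 2 and knockout 3 they had 15 of 21 (median 0.06).

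Brakes on the cycle were measured too. By brightest probe set, all 7 CDK inhibitor genes had differences above 0, with a median of 0.05, and none passed. There were 6 of 7 with quantile normalization and also without control 2 and knockout 3. Without control 4 or without knockout 1 there were 5 of 7. Of the 9 probe sets of these genes, 8 were above 0 and the other had -0.34. Cdkn1a encodes p21, which stops the cyclin kinases in cells that leave the cycle. It read 10.54, 10.83, 10.82 and 10.62 in controls 1 to 4 and 11.02, 10.93, 11.02 and 10.86 in knockouts 1 to 4. Every knockout value was above every control value, which held for 2.1% of all probe sets. The difference was 0.26 (SE 0.084, 95% interval 0.07 to 0.45, adjusted p = 0.607 in limma). Cdkn1b, which encodes p27, had 0.04 and overlapped.

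The order of the mice was seen in the other mitosis genes. Among these 38, control 2 was the highest control in 32 and knockout 3 the highest knockout in 27 (84.2% and 71.1%, against 25.4% and 30.2% of all genes). Their mean deviations were -0.14, 0.16, -0.15 and -0.02 in controls and -0.09, 0.07, 0.19 and -0.02 in knockouts. The other lists shared it in part or not at all. For the 35 other replication factors the counts were 20 and 12 (57.1% and 34.3%), and knockout 2 was the highest knockout in 15. For the 21 other G1/S regulators they were 9 and 10 (42.9% and 47.6%). For the 7 CDK inhibitors they were 2 and 3 (28.6% and 42.9%). No inhibitor had both arrays on top (0 of 7, against 14.9% of all genes).

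Markers of other cells were set beside this order, over the same arrays. T cell markers had the same arrays on top: control 2 was the highest control in 9 of 11 and knockout 3 the highest knockout in 10 of 11, with a mean deviation of 0.29 and 0.68. Below the top the knockouts ran differently. T cell markers had 0.016 in knockout 1, -0.09 in knockout 2 and -0.35 in knockout 4, where the cell cycle genes had -0.14, 0.07 and -0.05. The other controls lay between -0.22 and -0.13 for the T cell markers. Cd8a, the CD8 chain of killer and intraepithelial T cells, read 7.50, 8.03, 7.56 and 7.77 in controls 1 to 4 and 7.99, 7.46, 8.65 and 7.01 in knockouts 1 to 4. Of the T cell list 1 marker, Cd2, had a mean under 5. The part of T cells in the order of the cell cycle genes was not tested. B cell and germinal centre markers had another order: control 4 was the highest control in 12 of 13, knockout 2 the highest knockout in 9 of 13, and neither control 2 nor knockout 3 was on top in any (0 of 13). Their mean deviations ran from -0.25 to 0.18 in controls and from -0.12 to 0.51 in knockouts.

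Crypt stem cell markers did not have these arrays on top. Control 2 and knockout 3 were on top in 1 of 14 each, and knockout 3 had the lowest mean deviation of all arrays, -0.22, against 0.21 in control 4. Lgr5, the marker of crypt base stem cells, read 7.20, 7.05, 7.31 and 7.26 in controls 1 to 4 and 7.23, 6.77, 6.61 and 7.08 in knockouts 1 to 4, with a difference of -0.28 (SE 0.13, 95% interval -0.57 to 0.0033, adjusted p = 0.703 in limma). Rnf43, which damps Wnt signals in stem cells, had -0.36 (adjusted p = 0.582 in limma). Of the 14 markers, 11 had differences below 0, with a median of -0.12 and none past the test. Without control 4 the median was -0.067, and without control 2 and knockout 3 it was -0.062 with 10 of 14 below 0.

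The remaining marker lists are given by array and by genotype, and none of their genes passed the test. Exocrine pancreas markers were highest in knockout 3 among knockouts in 11 of 11 and in control 4 among controls in 10 of 11. Their mean deviations ran from -1.19 to 1.00 in controls and from -0.38 to 0.51 in knockouts, and their part was not tested. Among controls, macrophage and fibroblast markers were highest in control 4 in 7 of 10 and 7 of 7, and among knockouts in knockout 2 in 8 of 10 and 5 of 7. Smooth muscle markers had mean deviations of 0.32 and 0.30 in knockouts 1 and 3 and were below 0 on the other arrays, down to -0.20 in control 1. Enterocyte markers had -0.20 in control 2 and -0.09 to 0.12 elsewhere. Paneth cell markers ranged from -0.65 in knockout 1 to 0.29 in control 3. Pla2g2a, a secreted phospholipase, carried the low value, with 8.67 in knockout 1 and 12.28 to 14.08 on the other arrays, and without it, a choice made after its values were seen, the other 4 markers had 0.19 in knockout 1. Plasma cell markers ranged from -0.19 in control 1 and knockout 4 to 0.12 in knockout 2.

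Between the genotypes, smooth muscle markers had differences above 0 in 10 of 10 (median 0.22), also without control 2 and knockout 3 (median 0.17). Enterocyte markers had 8 of 9 above 0 (median 0.18, or 0.15 without that pair and 0.098 without control 2). Of these 9 genes, 6 did not overlap between the groups, 5 with the knockout higher and 1 with it lower. Over all 18193 genes, 791 did not overlap, 415 higher and 376 lower. The lower marker was Alpi, at -0.22 (adjusted p = 0.599 in limma). B cell and germinal centre markers had 12 of 13 above 0 (median 0.22 with and without the pair, 0.10 without knockout 2 and 0.35 without knockout 3). T cell markers had 9 of 11 above 0 (median 0.07), 6 of 11 without the pair and 2 of 11 without knockout 3 (median -0.15). Exocrine pancreas markers had 11 of 11 below 0 (median -0.20, or -0.33 without the pair), but 8 of 11 were above 0 without control 4 (median 0.14). The part of these cells in the differences of the cell cycle genes was not tested.

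**Figure D4:**
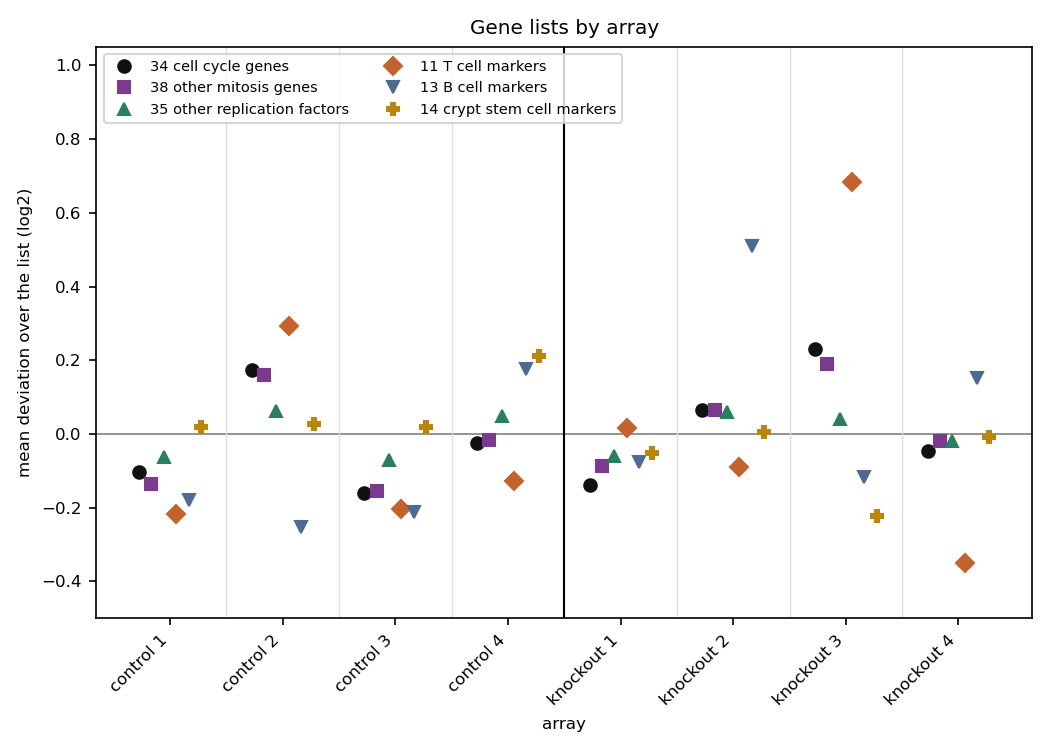
Mean deviation, in log2 units, of 6 gene lists on each array, each gene taken against its own mean over the 8 arrays. The cell cycle genes, the other mitosis genes and the T cell markers are highest in control 2 and knockout 3, while B cell markers peak in knockout 2 and crypt stem cell markers in control 4.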

How the data were processed

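The authors deposited 1 table of log2 expression values per probe set and array. The submitters' processing notes list Partek 6.4, and the sources used here name no background correction or normalization. Values ran from 2.55 to 14.83, which is where the log2 scale comes from. Similar array medians hide any shift of all transcripts together. There are no detection calls and no read depth, so the number of arrays limits the precision.

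Of 45101 probe sets, 64 array controls were left out. GEO's platform annotation gave 34945 probe sets 1 gene symbol, 932 several and 9160 none. All 45037 probe sets were fitted with limma 3.58.1 (lmFit, then eBayes) under R 4.3.3, knockout minus control, with no filter or block, two-sided, with Benjamini-Hochberg adjustment over all of them, after the code was tested on simulated data. No arrays held identical values. Where a gene had several probe sets, the brightest over all 8 arrays stood for it. The labels call the samples biological replicates.

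The members and lists were chosen with earlier results of these data known, so no list test was run. Every member could be named, and of each other list the called genes and up to 4 genes with the smallest p. Only Cd8a was chosen after its values were seen. Alternatives were a replicate block, quantile normalization, median centring, a minimum mean and a floor of 5, array weights, a prior both trended and robust, an ordinary linear model, an adjusted p under 0.1, averaging the probe sets of a gene, and leaving out each array in turn. Figures were drawn with matplotlib 3.10.9.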

Additional observations from a re-analysis of the deposited data

Results flagged for a closer look

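In groups of 4 arrays, 116 groups of values were screened for an array far from the others, and 7 were marked. About 1 in 20 groups is marked by chance, and genes of this kind move together, so the marks are not independent. Control 2 was far above the other controls for Ccnd1 (10.01), Aurka (8.33) and Plk1 (8.83), and in the mean deviation of the G2/M cyclin, kinase and transcription factor genes (0.20). Control 4 was far above the other controls in the mean deviation of crypt stem cell markers (0.21) and of B cell and germinal centre markers (0.18). Knockout 3 was far above the other knockouts in that of exocrine pancreas markers (0.51).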

How the results depend on the processing

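No member probe set and no probe set of the further cell cycle lists passed under any alternative in which it was tested. These included an adjusted p under 0.1, the replicate block and each sample left out in turn. The minimum mean of 5 kept 60 of the 77 probe sets and left out 53 of the 231. Averaging the probe sets of a gene was used for the differences only. Over all probe sets the ordinary linear model called only 2 and the floor of 5 only 4. The median difference of the 34 genes, 0.051, ran from 0.0042 with array weights to 0.061 with median centring. With each sample left out it lay between -0.025, without knockout 3, and 0.126, without control 2. The count of genes below 0, 6 of 34, moved too. It was 16 with array weights and 10 with quantile normalization, and with each sample left out it lay between 4 and 22. It was 15 without control 3 and 22 without knockout 3. The cause was not tested. Without control 2 and knockout 3 together, a choice made after seeing the data, it was 8. With the replicate number as a block the 34 differences and their median of 0.051 could not change, as each number holds 1 control and 1 knockout. That setting bears on the calls only. Same-numbered arrays did not deviate together, with correlations of -0.02, -0.09, -0.19 and 0.18 for numbers 1 to 4, so the numbers were not taken as pairs, and over all probe sets the block raised the count of calls from 19 to 24. Dim probe sets, 17 of the 77, limit what can be read for Tyms above all.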
